A study of Mus musculus with 6 samples.

Results

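Transcripts of 43 genes of autophagy and of mTORC1 signalling at the lysosome were examined by RNA-Seq in isolated lung endothelial cells (iLECs). The cells came from control mice and from mice with induced endothelial deletion of *Atp6ap2* (iECKO). The genes were taken by symbol from a list of autophagy, TFEB and mTORC1 pathway genes, which was drawn up with earlier results of these data known. All 43 had a row among the 24972 gene symbols of the deposited table, and all 43 were among the 14456 genes whose normalized count reached 10 in at least 3 libraries, the level required for a test. By role, 8 act in initiation, 7 in conjugation, 6 are the ATG8 family and the receptor *Sqstm1*, and 2 are the transcription factors *Tfeb* and *Tfe3*. The mTORC1 side holds 5 genes of the mTOR complexes, 3 of the TSC-RHEB switch, 8 of the Rag GTPases and Ragulator, and 4 of GATOR1 and FLCN-FNIP.

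The libraries came from CD31-bead-isolated cells of P7 mouse lung, 3 from control pups and 3 from *Atp6ap2* iECKO pups, labelled as C57BL/6. The methods of the study describe a mixed background of CD1 and C57BL/6. All pups are labelled *Atp6ap2* fl/Y and received 100 μg tamoxifen on P1, P2 and P3. The *Atp6ap2* iECKO pups also carried Cdh5-CreERT2, a tamoxifen-activated recombinase under the control of the promoter of *Cdh5*, the endothelial cadherin gene. The control pups carried no Cre, so loss of *Atp6ap2* and the presence of active Cre cannot be told apart.

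ATP6AP2, also called the (pro)renin receptor, is an accessory protein of the vacuolar H+-ATPase, the pump that acidifies lysosomes. In autophagy, cytoplasm is enclosed in a double membrane built by ATG proteins and is then delivered to lysosomes, whose enzymes need the low pH. The kinase mTORC1 is held on the lysosomal surface by Rag GTPases and the Ragulator complex, which contacts the H+-ATPase. When active, mTORC1 restrains ULK1-driven autophagy and keeps TFEB and TFE3, which switch on lysosomal and autophagy genes, in the cytoplasm.

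*Atp6ap2* itself, an X-linked gene, was measured at 7490.2, 5815 and 5681 normalized counts in control libraries 1 to 3 and at 4219.8, 2336 and 1982 in *Atp6ap2* iECKO libraries 1 to 3. Its log2 fold change was -1.22 ± 0.26 (SE, n = 3 per genotype, limma adjusted *P* = 0.0306), a change of -57.1%. The transcript was thus lowered but not absent, with the most left in iECKO 1. *Xist*, transcribed from the inactive X chromosome of female cells, stood between 37704 and 47487 in 4 libraries (control 1 and 2, iECKO 1 and 3) and at 31.7 and 19.3 in control 3 and iECKO 2, although all 6 are labelled fl/Y. The summed values over all genes ran from 26359661 to 28725799 in control and from 26243878 to 27221581 in *Atp6ap2* iECKO libraries. All 15 endothelial markers examined were detected, 1 of them called lower (*Tek*), with summed levels of 397651 to 520067 in control and 395141 to 467379 in *Atp6ap2* iECKO. The genotypes did not overlap for 4 of the 15 (26.7%, against 29.8% of all genes), 2 lower and 2 higher. Of these 4, *Ptprb* had a log2 fold change of -0.68 but did not pass the test (limma adjusted *P* = 0.0527). Most fibroblast and mural markers and most proliferation genes were called different by genotype, against 8.25% of all genes tested. Of 14 fibroblast markers tested 9 were lower (sum 98562 to 140638 against 42769 to 59912). The log2 fold change was positive for 3 others, *Pi16* (1.12, without overlap), *Mfap5* (0.55) and *Fbln2* (0.32), and none of these passed the test. Of 15 mural markers 10 were lower (23903 to 33077 against 12929 to 14679). Of 15 proliferation genes 12 were higher (23334 to 41908 against 53469 to 61817). Of 15 epithelial markers 1 was higher, *Scgb1a1*, with a summed level of 82213 in control 3 and 32420 to 47097 in the other 5 libraries. None of 13 leukocyte (5217 to 14988) and 7 erythroid markers tested (10664 to 47971) passed the test, and the globin gene *Hbb-bs* was at 0 throughout. The part of these cells in the results that follow was not tested, and in bulk RNA fewer cells of a type and less RNA per cell cannot be told apart.

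Most of the 43 transcripts stayed close to their control level. By limma, adjusted over all genes tested with a threshold of 0.05, 2 of 43 (4.65%) passed the test, against 8.25% of all genes tested. Both were lower in *Atp6ap2* iECKO iLECs. *Atg10*, which encodes the E2-like enzyme that transfers ATG12 to ATG5, changed by -44.9%, and *Ulk2*, which encodes a kinase related to ULK1, by -17.5%. Of all genes, 4.97% were called lower. No member was called higher, against 3.28% of all genes. At an unadjusted *P* below 0.05 there were 7 members (16.3%; 5 lower and 2 higher), where all genes gave 23.9%. The 3 control and 3 *Atp6ap2* iECKO values did not overlap for 10 members (23.3%; 6 lower and 4 higher), against 29.8% of all genes. The counts for the members were therefore at or below the background in each of these readings.

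The sizes of the differences were small as well. The median log2 fold change of the members was -0.06 (0.005 over all genes tested), with 27 values below 0 and 16 above. The median absolute log2 fold change was 0.13, against 0.21 over all genes, and 35 of 43 members (81.4%) lay within 0.25 of 0, against 56.9% of all genes. For 33 members the whole 95% interval of the log2 fold change lay within 0.5 of 0, that is between a fall of 29.3% and a rise of 41.4%. The 10 others were *Wipi1*, *Atg10*, *Map1lc3a*, *Map1lc3b*, *Tsc1*, *Tsc2*, *Rragd*, *Lamtor2*, *Lamtor4* and *Fnip1*, and only for *Atg10* and *Rragd* did the interval reach beyond 1. Changes smaller than these intervals could not be detected with 3 libraries per genotype.

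**Figure D1:**
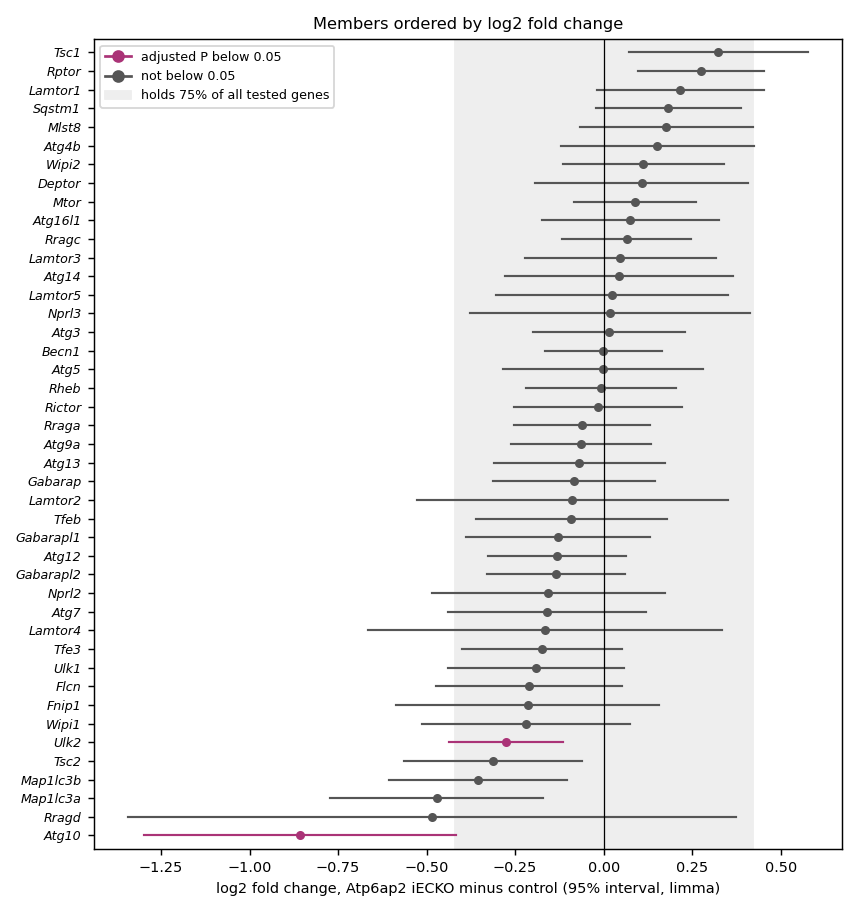
log2 fold change of each of the 43 members (*Atp6ap2* iECKO minus control, points) with its 95% interval from limma (lines), ordered by value. *Atg10* and *Ulk2* (purple) had an adjusted *P* below 0.05, and the grey band holds the absolute fold changes of 75% of all 14456 genes tested. All points except *Map1lc3a*, *Rragd* and *Atg10* lie inside the band.

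Transcript levels were compared between genes as normalized count per kb of annotated exon. On that scale the control means spanned from 4011 for *Sqstm1*, which encodes the cargo receptor p62, to 16.5 for *Rragd*, a Rag GTPase subunit. All 5 ATG8-family genes were among the 7 highest members, with *Gabarap* at 2239 and *Gabarapl1* at 1422 per kb. *Map1lc3b* at 1045 and *Map1lc3a* at 1037 per kb differed by less than the spread between control libraries. That closeness depends on the length used, the union of all annotated exons (7517 bases for *Map1lc3b* and 1181 for *Map1lc3a*). Before division by length the control means were 7854 and 1225. The lengths of the transcripts present in these cells were not measured. Among the Rag subunits, the control level of *Rraga* was 1016 and that of *Rragc* 735 per kb, far above *Rragd*. *Atg10* was among the lower members at 84.0 per kb in control and 46.1 per kb in *Atp6ap2* iECKO, next to *Tfeb* at 80.7 per kb in control. *Nprl3*, a GATOR1 subunit, stood at 37.4 per kb in both genotypes.

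**Figure D2:**
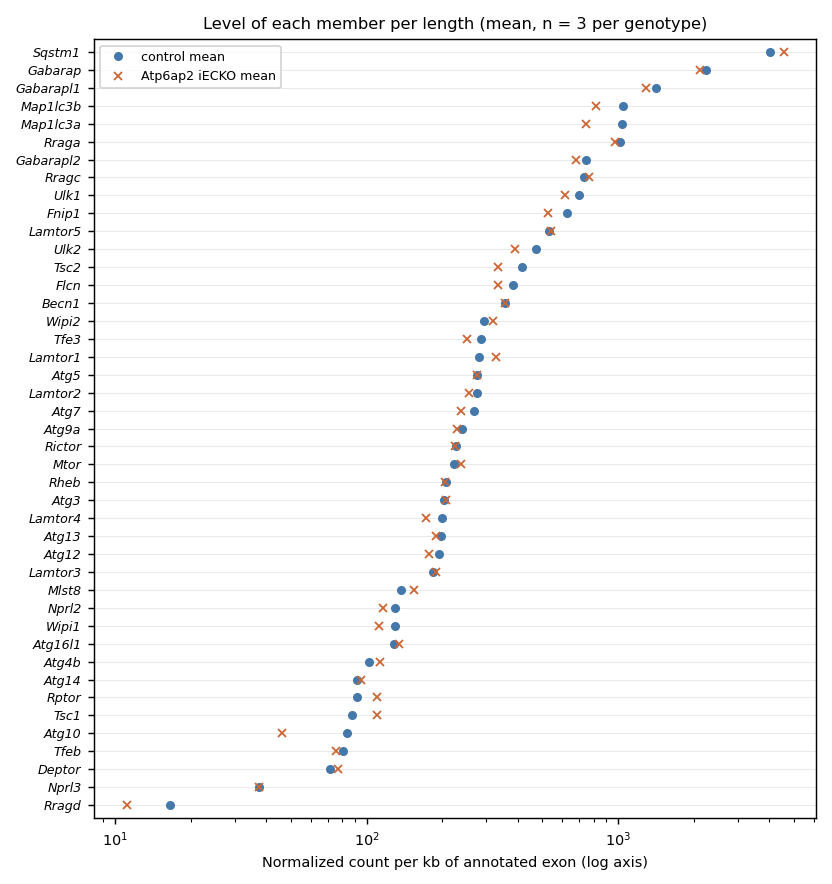
Mean normalized count per kb of annotated exon (log axis) of each member in control (circles, n = 3) and *Atp6ap2* iECKO iLECs (crosses, n = 3), ordered by the control mean. The levels range from 16.5 for *Rragd* to 4011 for *Sqstm1* in control, and the crosses lie close to the circles for most members.

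Promoter sequences from RefSeq (GRCm38.p6) were read for 37 of the 43 members. They span the 250 bases before and 50 bases after each RefSeq start in the set used. Such a start can differ from the 5′ end of the gene in the GENCODE annotation. No sequence was read for *Atg12*, *Atg16l1*, *Becn1*, *Deptor*, *Lamtor3* and *Map1lc3a*. The promoters of the only 2 members that passed the test are printed 5′ to 3′ on the gene's own strand, with matches to the GC box (CCGCCC or its reverse complement GGGCGG) in capitals. The *Atg10* promoter lies at chr13:91223938-91224237 on the minus strand and holds 2 matches close to the start. The *Ulk2* promoter lies at chr11:61855043-61855342 on the minus strand and holds 1 match, 181 bases before the start.
Atg10: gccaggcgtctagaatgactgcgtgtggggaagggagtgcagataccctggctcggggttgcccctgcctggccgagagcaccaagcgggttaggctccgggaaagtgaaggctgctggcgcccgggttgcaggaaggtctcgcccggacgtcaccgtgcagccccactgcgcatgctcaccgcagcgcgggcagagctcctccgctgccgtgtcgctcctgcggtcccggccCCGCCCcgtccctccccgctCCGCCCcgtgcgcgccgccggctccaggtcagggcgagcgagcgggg
Ulk2: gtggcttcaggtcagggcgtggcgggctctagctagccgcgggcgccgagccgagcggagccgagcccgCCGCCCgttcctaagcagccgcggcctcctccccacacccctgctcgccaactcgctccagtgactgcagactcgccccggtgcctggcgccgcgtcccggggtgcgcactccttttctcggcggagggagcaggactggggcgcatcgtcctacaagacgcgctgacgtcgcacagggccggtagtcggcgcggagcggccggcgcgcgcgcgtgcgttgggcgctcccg

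GC boxes were in 22 of the 37 member promoters (59.5%), against 38.2% of the 27025 genes with a promoter. The CLEAR element is the site that TFEB and TFE3 recognise in lysosomal and autophagy genes. Its core, searched as TCACGTG or CACGTGA and overlapping the general E-box CACGTG, was in 8 of 37 member promoters (21.6%), against 4.29% of all genes with a promoter. The full palindrome TCACGTGA was in 1 member, *Atg3*, and in 1.12% of all genes. The windows around each core in the 8 members are printed 5′ to 3′ on the gene's strand with the core in capitals, because they mark the members with a sequence of the kind TFEB reads. They lie at chr14:47568419-47568445 (*Atg14*, minus strand), chr16:45158724-45158750 and chr16:45158747-45158774 (*Atg3*), chr6:114670953-114670979 (*Atg7*), chr11:54438094-54438120 (*Fnip1*), chr7:101905758-101905784 (*Lamtor1*), chr5:138255352-138255378 and chr5:138255367-138255393 (*Lamtor4*), chr5:24842442-24842468 (*Rheb*, minus strand) and chr4:123917311-123917337 (*Rragc*), the others on the plus strand. The RefSeq starts used for *Atg7* and *Atg14* lie 27999 and 2215 bases inside the GENCODE gene, so their windows do not describe its outermost promoter.
Atg14: aacaaaatccCACGTGActggccctga
Atg3, first: cctccttttgTCACGTGtcctgggaga
Atg3, second: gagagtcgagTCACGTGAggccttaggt
Atg7: atattggtggTCACGTGtgcagtaagt
Fnip1: agtttgctgcCACGTGAtacggctcgt
Lamtor1: tgccttcctaTCACGTGccgcgggtcc
Lamtor4, first: agaaagttaaCACGTGAacagcttttc
Lamtor4, second: gaacagctttTCACGTGtaaaccaaac
Rheb: ccgcgcgcggTCACGTGggtgtgttgt
Rragc: tgattccgggCACGTGAtagtaccact

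None of the 8 members with a CLEAR core passed the test, against 8.25% of all genes tested. With 8 genes, a count of 0 does not set them apart from that share. Their log2 fold changes ran from -0.21 for *Fnip1* to 0.22 for *Lamtor1*, with a median of 0.004, and the 29 members with a promoter but no core had a median of -0.08. A match of letters in this window is a description and not a measured binding site.

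The initiation genes build and direct the ULK1 and class III PI3-kinase complexes and the first membrane. *Ulk2* lies on the minus strand at chr11:61775649-61855073 (mm10). Its normalized counts were 2897, 2742 and 2844 in control libraries and 2318, 2358 and 2325 in *Atp6ap2* iECKO libraries. The genotypes were apart and the spread within each was narrow (2828 ± 78 against 2333 ± 21, SD, n = 3). The log2 fold change was -0.28 ± 0.07 (SE, limma adjusted *P* = 0.0499), just inside the threshold. It was inside the threshold in 2 of 17 alternative fits, and leaving out any 1 of the 6 libraries ended the call (adjusted *P* by limma from 0.0435 to 0.295 over the 17), while the log2 fold change stayed between -0.30 and -0.24. *Ulk1*, the better known kinase of the pair, had a log2 fold change of -0.19 ± 0.11 (limma adjusted *P* = 0.333) with overlapping values of 3920 to 4912 and 3793 to 4295.5. With 3 libraries against 3, the exact permutation test of a single gene cannot go below *P* = 0.1, the value it gave for each of the 10 members without overlap, *Ulk2* among them.

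The 6 other initiation genes did not pass the test. Their log2 fold changes ran from -0.22 for *Wipi1*, a phosphoinositide-binding protein of the forming membrane, to 0.11 for its relative *Wipi2*. *Becn1*, the Beclin 1 subunit of the PI3-kinase complex, had the value nearest 0 of all members (-0.001, 95% interval -0.17 to 0.16), although 43.9% of its exon bases are shared with *Cntd1* on the opposite strand. The kit does not mark strand, so reads of such a pair cannot be told apart. *Atg9a*, the lipid-scrambling membrane protein that seeds autophagosomes, shares 32.6% of its exon bases with other genes and had a log2 fold change of -0.06 ± 0.09 (SE). *Atg13* (-0.07) and *Atg14* (0.04), adaptors of the kinase and PI3-kinase complexes, also had overlapping genotypes.

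Conjugation enzymes attach ATG12 to ATG5 and ATG8 proteins to lipid. *Atg10*, at chr13:90935356-91223968 on the minus strand, showed the largest difference of the 43. It was measured at 136, 151 and 146 normalized counts in control and at 75.4, 86.3 and 75.9 in *Atp6ap2* iECKO libraries. Every *Atp6ap2* iECKO library was below every control library, at 144 ± 7 against 79.2 ± 6.1 (SD, n = 3). The log2 fold change was -0.86 ± 0.19 (SE, limma adjusted *P* = 0.0352), a change of -44.9% with a 95% interval of -59.4% to -25.2%. None of its exon bases is shared with another gene. The log2 fold change stayed between -0.92 and -0.82 in all 17 alternative fits. The call was kept in 7 of them and in none of the 6 fits that left out 1 library (limma adjusted *P* 0.0346 to 0.229 over the 17). Scaling by library total gave 0.0504 and *Xist* status as a covariate 0.0599 (limma adjusted *P*). Fitting the 4 libraries with *Xist* alone gave a log2 fold change of -0.91 and no call among all genes (limma adjusted *P* = 0.229), and the pair without *Xist* differed by -0.75.

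The partners of ATG10 in the same reaction were not called. *Atg7*, the E1-like enzyme of both conjugation branches, had a log2 fold change of -0.16 ± 0.12, and *Atg5*, the acceptor, -0.003 ± 0.12 (SE). *Atg12*, the conjugated protein, had 1489, 1484 and 1519 in control against 1299.7, 1482 and 1327 in *Atp6ap2* iECKO. Its genotypes did not overlap, but only by the margin between control 2 and iECKO 2, and its log2 fold change was -0.13 ± 0.08 (SE, limma adjusted *P* = 0.399). *Atg16l1*, which places the conjugate on membranes, *Atg3*, the E2-like enzyme for ATG8 proteins, and *Atg4b*, the protease that trims them, had log2 fold changes of 0.08, 0.02 and 0.15.

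**Figure D3:**
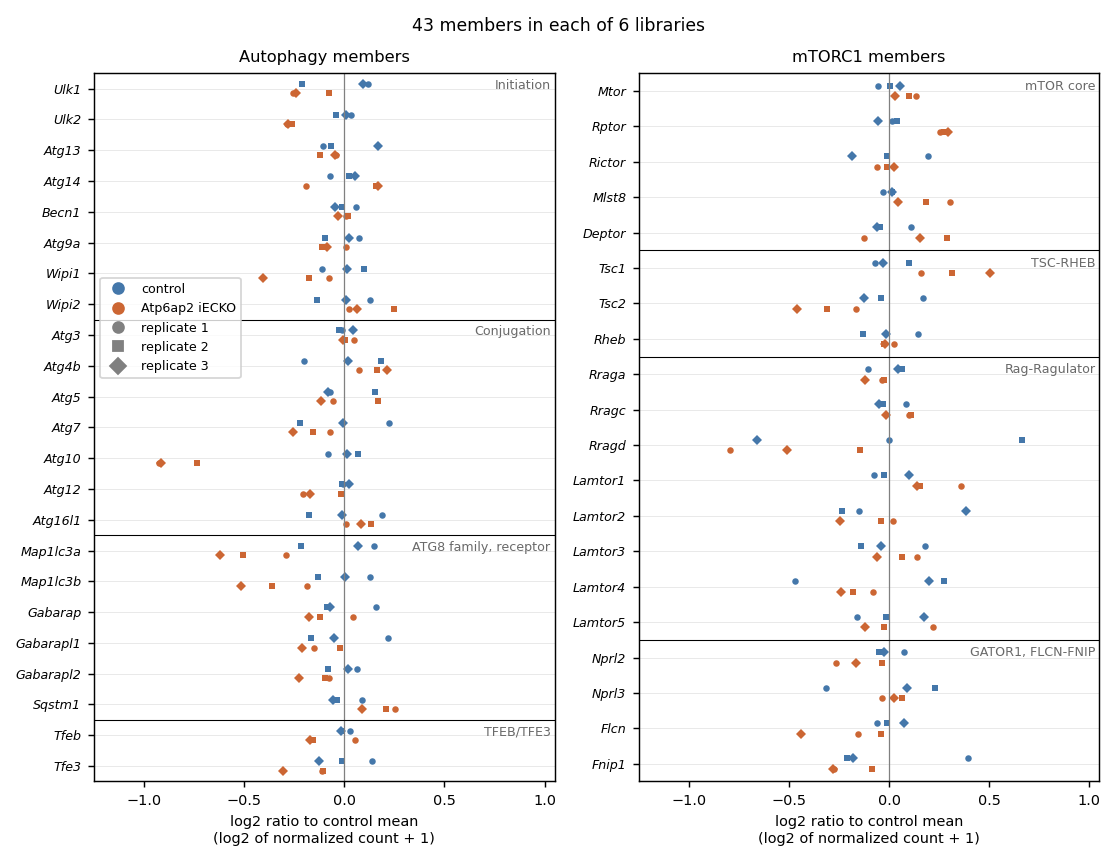
log2 ratio of each library to the control mean (on log2 of normalized count + 1) for the autophagy members (left) and mTORC1 members (right), grouped by role, with control in blue, *Atp6ap2* iECKO in orange and a marker shape for each replicate number. The clearest separation is in *Atg10*, where the orange points lie between -0.93 and -0.73, and *Rragd* shows the widest scatter within control.

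The ATG8-family proteins coat the autophagosome and bind cargo receptors, and *Map1lc3b* encodes LC3B, the usual marker of autophagosomes. All 5 transcripts had a negative log2 fold change, and none passed the test. The summed level of the family was 19611, 16231 and 17550 in control libraries and 16316, 15170 and 13825 in *Atp6ap2* iECKO libraries. Control 2 lay just below iECKO 1, so the genotypes overlapped in the sum.

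The LC3 genes had the largest differences of the family. *Map1lc3a* had 1349, 1048 and 1276 normalized counts in control and 996, 858 and 791 in *Atp6ap2* iECKO libraries. *Map1lc3b* had 8552, 7149 and 7861 against 6872, 6104 and 5469. Neither gene's genotypes overlapped, although control 2 approached iECKO 1 in both. The log2 fold change was -0.47 ± 0.13 for *Map1lc3a* (SE, limma adjusted *P* = 0.0662) and -0.36 ± 0.11 for *Map1lc3b* (limma adjusted *P* = 0.0908). Both values miss the threshold, and without control 2 *Map1lc3a* reached it (-0.58, limma adjusted *P* = 0.0465). With replicate number as a block both genes reached it (limma adjusted *P* = 0.0418 and 0.0464).

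The GABARAP branch, which acts later in autophagosome closure and fusion, differed less. *Gabarap* was at 4594, 3871 and 3920.3 in control and 4245.5, 3790 and 3640 in *Atp6ap2* iECKO libraries. *Gabarapl1* was at 3309.6, 2531 and 2744 against 2563, 2804 and 2451.5, and *Gabarapl2* at 1806, 1632 and 1748 against 1639, 1615 and 1473.5. All 3 genes overlapped between genotypes, with log2 fold changes of -0.08, -0.13 and -0.13 and limma adjusted *P* values of 0.664, 0.547 and 0.391.

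*Sqstm1*, the receptor that is itself degraded by autophagy, was the one gene of this group with a positive value. It had 14320, 13116 and 12948 normalized counts in control and 16042, 15519 and 14280 in *Atp6ap2* iECKO libraries. iECKO 3 fell just below control 1, and the 2 others were above all controls. The log2 fold change was 0.18 ± 0.09 (SE, limma adjusted *P* = 0.261), and its exons share 17.3% of their bases with *Mrnip*. These are transcript levels, and p62 protein was not measured in these libraries.

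*Tfeb* and *Tfe3*, which mTORC1 regulates mainly through the location of their proteins, had log2 fold changes of -0.09 ± 0.12 and -0.17 ± 0.10 (SE). *Tfe3*, on the X chromosome, had 2887, 2598 and 2407 in control and 2426, 2440 and 2124 in *Atp6ap2* iECKO libraries, with control 3 below 2 of the 3 *Atp6ap2* iECKO libraries (limma adjusted *P* = 0.335). Control 3 and iECKO 2 are the libraries without *Xist*, and for *Tfe3* they differed by 0.02 on the log2 scale. In the 4 libraries with *Xist* the log2 fold change of *Tfe3* was -0.27.

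**Figure D4:**
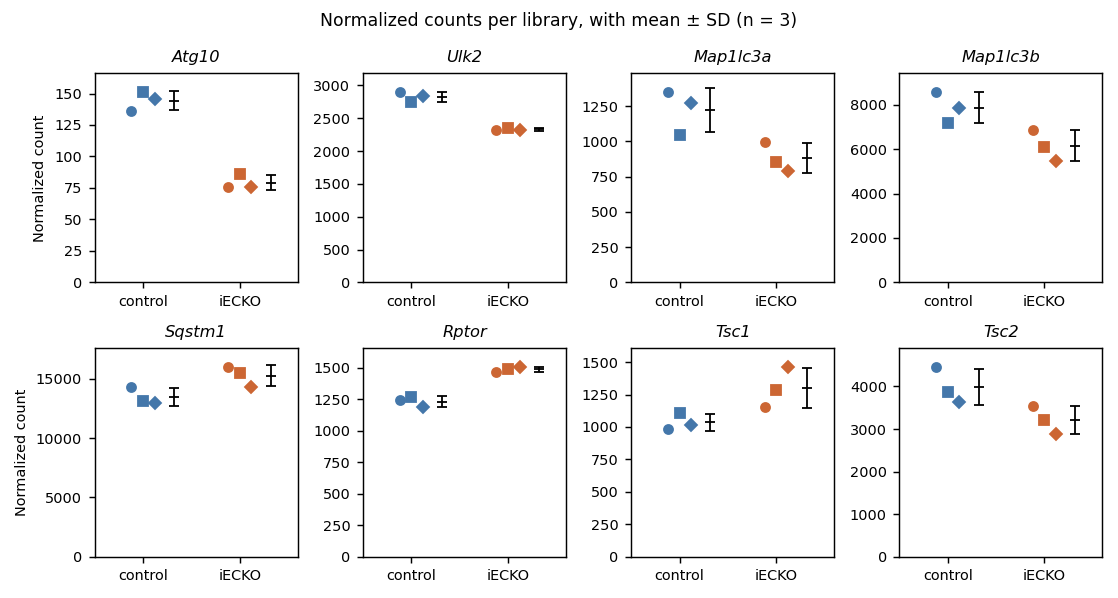
Normalized counts of 8 members in each control (blue) and *Atp6ap2* iECKO (orange) library, with the mean ± SD (n = 3) in black beside the points. Axes start at 0. Only *Atg10* and *Ulk2* passed the test, and *Sqstm1* is the only panel in which the genotypes overlap. The panels were chosen by these values. Over all 43 members the genotypes did not overlap for 10 (23.3%, against 29.8% of all genes).

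Among the genes of the mTOR complexes, 4 of 5 log2 fold changes were positive (median 0.11) and none was called. *Rptor* encodes Raptor, the scaffold that defines mTORC1. It was at 1244, 1264 and 1184 in control and 1469, 1489.8 and 1509 in *Atp6ap2* iECKO libraries, with a clear gap between genotypes. Its log2 fold change was 0.27 ± 0.08 (SE, limma adjusted *P* = 0.0687), and it stayed outside the threshold in all 17 alternative fits (0.0519 to 0.361) with values of 0.25 to 0.32. *Mlst8*, a subunit of both complexes, was also without overlap (593 to 612 against 625 to 746; 0.18, limma adjusted *P* = 0.364), with 22.5% of its exon bases shared with *Bricd5*. *Mtor*, the kinase, had 0.09 ± 0.07, *Deptor*, an inhibitor of the complexes, 0.11 ± 0.13, and *Rictor*, the scaffold of mTORC2, -0.02 ± 0.10 (SE).

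The 2 subunits of the TSC complex, the GTPase-activating brake on RHEB, had opposite signs. *Tsc1* was at 986, 1109.7 and 1013 in control and 1155, 1286 and 1465 in *Atp6ap2* iECKO libraries. *Tsc2* was at 4467, 3862 and 3642 against 3546, 3202 and 2888. Neither gene's genotypes overlapped, *Tsc1* being higher and *Tsc2* lower in all 3 *Atp6ap2* iECKO libraries. The log2 fold changes were 0.32 ± 0.11 (SE, limma adjusted *P* = 0.120) and -0.31 ± 0.11 (limma adjusted *P* = 0.128), so neither passed the test. *Rheb*, the GTPase that activates mTORC1, had a value of -0.007 ± 0.092 (SE).

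The Rag GTPases and Ragulator, which tether mTORC1 to the lysosome and contact the H+-ATPase, gave no call among 8 genes (median -0.02, 4 positive and 4 negative). *Rragd* had the largest difference of the group and the poorest precision. It was at 79.6, 127 and 50.03 in control and 45.5, 71.9 and 55.7 in *Atp6ap2* iECKO libraries. The genotypes overlapped, and the log2 fold change was -0.49 ± 0.37 (SE, limma adjusted *P* = 0.484). The pair of libraries without *Xist* gave the opposite sign (0.51), and the 4 libraries with *Xist* gave -0.99. *Lamtor1*, the Ragulator subunit that anchors the complex in the membrane, was at 855, 884 and 966 in control and 1156, 1002 and 990 in *Atp6ap2* iECKO. These did not overlap (0.22 ± 0.10 SE, limma adjusted *P* = 0.244), and 18.7% of the exon bases are shared with *Lrrc51*. The other Ragulator genes had -0.09 (*Lamtor2*), 0.05 (*Lamtor3*), -0.17 (*Lamtor4*) and 0.02 (*Lamtor5*), and the Rag genes *Rraga* and *Rragc* -0.06 and 0.06.

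GATOR1 switches the Rag GTPases off when amino acids are short, and FLCN with FNIP1 acts on RagC and RagD. *Fnip1* had 5731, 3762 and 3841 normalized counts in control and 3596, 4111 and 3582.5 in *Atp6ap2* iECKO libraries. Control 1 stood far above the other 5 libraries, and the log2 fold change of -0.21 ± 0.16 (SE, limma adjusted *P* = 0.473) shrank to -0.02 without it. *Flcn* had -0.21 ± 0.11 (limma adjusted *P* = 0.309), *Nprl2* -0.16 ± 0.14 and *Nprl3* 0.02 ± 0.17 (SE).

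The wider pathway was read from 103 further genes in 4 lists, of which 102 could be tested (*Rragb* was too low) and 10 passed (9.80%, against 8.25% of all genes), 7 higher and 3 lower. The 34 other autophagy genes had a median log2 fold change of -0.05 with 1 higher and 2 lower (8.82% called, near the background). These were *Optn*, a receptor for ubiquitin-tagged cargo (0.56 ± 0.13, limma adjusted *P* = 0.0412), *Calcoco1*, a receptor for parts of the endoplasmic reticulum (-0.58 ± 0.10, 0.0163), and *Bnip3l*, a receptor on mitochondria (-0.45 ± 0.09, 0.0234). *Optn* was at 302 to 390 in control and 495 to 529 in *Atp6ap2* iECKO, and *Bnip3l* at 5565 to 6556 against 4352.5 to 4669.9. Other receptors of the list were not called, with log2 fold changes of -0.17 for *Nbr1*, -0.33 for *Tax1bp1*, -0.22 for *Bnip3* and -0.35 for *Fundc1*. The 33 other mTORC1 genes tested had a median of 0.06 and 1 call (3.03%, below the background), *Sec13*, a subunit shared by the mTORC1 activator GATOR2 and the COPII coat (0.39 ± 0.10, limma adjusted *P* = 0.0480).

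The 20 genes listed as TFEB and TFE3 targets are mostly lysosomal, with the nuclear coactivator *Ppargc1a* among them. They gave no call by limma (0%, against 8.25% of all genes). With 20 genes, a count of 0 does not set them apart from that share. An unadjusted limma *P* below 0.05 was found for 1 of them (5%, against 23.9% of all genes). Their median log2 fold change was 0.005, and their summed levels of 62913 to 71174 in control and 60353 to 71816 in *Atp6ap2* iECKO overlapped. Of the 15 with a promoter sequence, 8 hold the CLEAR core.

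ATF4 is a transcription factor raised both by mTORC1 activity and by amino acid shortage, and it switches on genes of amino acid supply. The list of ATF4 and its targets holds 15 genes, of which 5 were higher and 1 lower (6 called, 40.0%, against 8.25% of all genes), with a median log2 fold change of 0.62. The list was chosen with earlier results of these data known, so this share is a description and not an independent comparison. *Psat1* of serine synthesis was at 395, 518 and 413 in control and 1047, 1187 and 1342 in *Atp6ap2* iECKO libraries (1.43 ± 0.14, limma adjusted *P* = 0.00703). *Mthfd2* of the mitochondrial folate pathway went from 191, 243 and 223 to 496, 565 and 668 (1.39 ± 0.16, limma adjusted *P* = 0.00831). Every *Atp6ap2* iECKO library was above every control library for both genes.

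*Asns*, asparagine synthetase (1.47 ± 0.23, limma adjusted *P* = 0.0138), *Phgdh*, the first enzyme of serine synthesis (1.07 ± 0.21, 0.0249), and *Shmt2*, the mitochondrial serine hydroxymethyltransferase (0.62 ± 0.10, 0.0133), rose as well. *Slc3a2*, the heavy chain of amino acid transporters, fell from 7818 to 8822 in control to 5074 to 6178 in *Atp6ap2* iECKO (-0.55 ± 0.10, limma adjusted *P* = 0.0183). Its light-chain partners *Slc7a5* (1.01 ± 0.27, limma adjusted *P* = 0.0634) and *Slc7a11* (0.96 ± 0.27, 0.0735) had positive values that missed the threshold. *Atf4* itself was at 13157 to 14918 in control and 13883 to 14751 in *Atp6ap2* iECKO, a log2 fold change of 0.03. The stress genes of the list, *Ddit3* (-0.04), *Chac1* (-0.25) and *Trib3* (0.40), were not called. The proliferation genes given above were higher in the same libraries, and their part in the rise of the serine and folate genes was not tested. The calls of *Psat1* and *Mthfd2* held in 16 of 17 alternative fits, all except the one with the 4 libraries that have *Xist*. The other calls held in fewer of the 17, at 14 for *Shmt2*, 13 for *Asns*, 12 each for *Phgdh*, *Slc3a2*, *Calcoco1* and *Bnip3l*, 9 for *Optn* and 8 for *Sec13*.

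**Figure D5:**
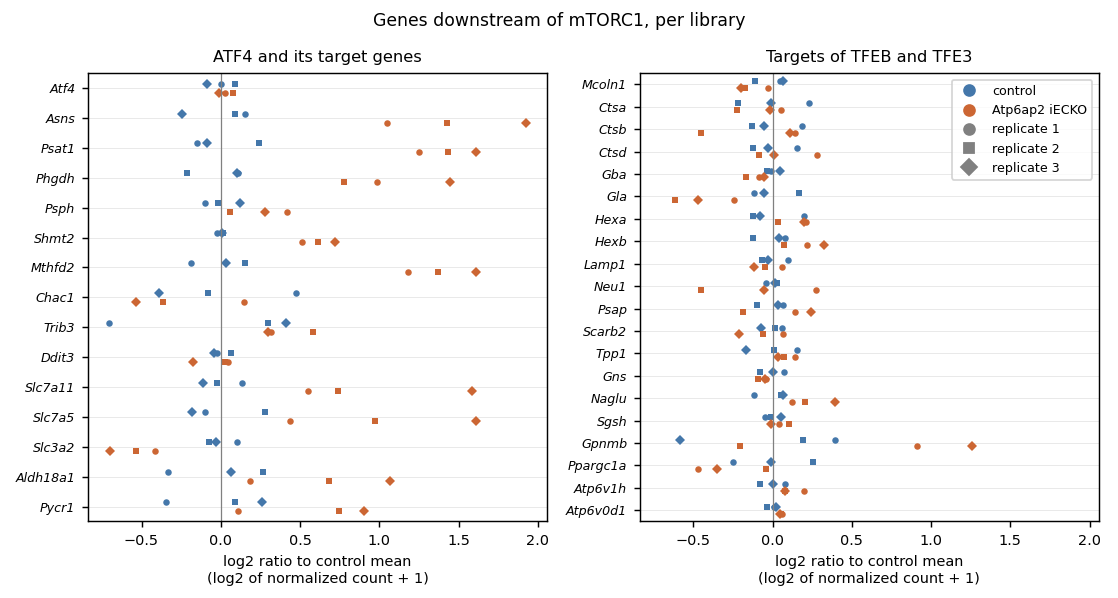
log2 ratio of each library to the control mean (on log2 of normalized count + 1) for ATF4 and its targets (left, 15 genes) and for listed targets of TFEB and TFE3 (right, 20 genes), with control in blue, *Atp6ap2* iECKO in orange and a marker shape for each replicate number. On the left the genotypes are apart for 8 of 15 genes (53.3%, against 29.8% of all genes), with 7 to the right of all controls and *Slc3a2* to the left. The 7 include the called genes *Asns*, *Psat1*, *Phgdh*, *Shmt2* and *Mthfd2*. In the right panel the genotypes are apart for 4 of 20 genes (20.0%).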

How the data were processed

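RNA-Seq libraries of P7 iLECs (TruSeq v2, unstranded) were aligned to mm10 and quantified by the authors with BaseSpace tools. The deposited table holds a normalized signal, here called normalized count, for each gene and library. The labels call these raw counts, but they are not whole numbers and reads could not be recovered from them, so no count model was run. Values were analysed as log2(normalized count + 1). A gene entered the test when 3 or more libraries reached a value of 10, with limma 3.58.1 (R 4.3.3; mean-variance trend, 6 libraries, no covariate), with Benjamini-Hochberg adjustment over 14456 genes and a threshold of 0.05. Intervals are 95%. Fold changes of low genes are understated by the pseudocount. The test was checked on simulated data.

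The members and lists were chosen with earlier results of these data known. Values of every library are given for members with an adjusted *P* below 0.05, those with an unadjusted *P* below 0.05 and no overlap, the largest difference in each role, and the ATG8 family. *Atg12*, *Sqstm1* and *Lamtor1* were added after their values were seen. Pathway genes with an adjusted *P* below 0.05 are named, and others named were chosen after their values were seen. Exon lengths, positions and overlaps came from GENCODE M21. The study describes biological replicates. The depth in reads is unknown. The closing section gives the effect of 17 alternative fits, of which the fit on libraries with *Xist* was chosen after seeing the data.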

Additional observations from a re-analysis of the deposited data

How the results depend on the processing

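No member was called higher in any of the 17 alternative fits (limma). The count of members called lower, 2 in the reported fit, was 0 with library total scaling, with no filter, with the *Xist* covariate and with the 4 libraries that have *Xist*. It was 1 (*Atg10*) with upper quartile scaling, a pseudocount of 0.5, limma without trend and robust limma, and 4 with the replicate block. Leaving out each library in turn gave 0 to 1. *Map1lc3a* was the 1, without control 2. The median log2 fold change of the members kept its sign in all 17 fits. Library total and upper quartile scaling raised the members with a positive value from 16 to 20 and shifted the median of all genes by 0.040 and 0.018. Of the other pathway genes, limma without trend called 3 higher and 0 lower, and the 4 libraries with *Xist* 0 and 0. Leaving out 1 library gave 3 to 7 higher and 0 to 4 lower, with the lowest counts without control 3, iECKO 2 or iECKO 3. The cause of these differences was not tested.

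The labels link same-numbered libraries only by the number, and whether these shared a litter or a preparation is unknown. Their deviations from the genotype mean correlated by 0.25, 0.11 and 0.078. Libraries of unlike number correlated by -0.21 to 0.10, and control 3 correlated better with iECKO 2 (0.10) than with iECKO 3. With the replicate block, *Atg10*, *Map1lc3a*, *Map1lc3b* and *Tsc2* were called (limma adjusted *P* 0.0426, 0.0418, 0.0464 and 0.0419), *Ulk2* was not (0.0640), and 9 pathway genes were higher and 3 lower.

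*Atp6ap2* lost its call in limma without trend (adjusted *P* = 0.0917), with the 4 libraries that have *Xist* (0.217) and in 5 of the 6 fits without 1 library, and its log2 fold change was -1.54 to -0.999 over the 17 fits. Reads behind each value are unknown, and 3 libraries per genotype limit what can be detected.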

Other observations

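*Mitf*, the third MiT/TFE factor beside TFEB and TFE3, had 241, 218 and 186 normalized counts in control and 242, 414 and 477 in *Atp6ap2* iECKO libraries. iECKO 1 was level with control 1, and the 2 other iECKO libraries were well above all controls (log2 fold change 0.76 ± 0.26 SE, limma adjusted *P* = 0.119). *Gla*, the lysosomal alpha-galactosidase, had the largest negative value among the TFEB and TFE3 targets, at 1059, 1292 and 1107 in control and 969, 749 and 827 in *Atp6ap2* iECKO libraries, without overlap (-0.44 ± 0.13 SE, limma adjusted *P* = 0.0719).

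The member values also differed between libraries of one genotype. Control 1 was the highest of all 6 libraries for 18 of the 43 members and the highest control for 23, and iECKO 3 was the lowest of all 6 for 15. The summed level of the 43 members was 0.295% to 0.321% of the library total in control and 0.301% to 0.313% in *Atp6ap2* iECKO, so the genotypes overlapped.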
